A study of Mus musculus with 6 samples.

Results

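The genes described here make, destroy and sense the neurotransmitter acetylcholine in mouse cerebral cortex. They are 10 genes taken by symbol, namely the cholinesterases Ache and Bche, the synthetic enzyme Chat, the muscarinic receptors Chrm1, Chrm2, Chrm3 and Chrm4, and the nicotinic receptor subunits Chrna4, Chrna7 and Chrnb2. Of these, 9 had at least 1 probe set, 17 probe sets in all, among 18193 genes named on the array. Chrm2 is not analysed here. The group was chosen by the known difference of Ache between the genotypes, a gene reported as a target of the transcription factor Egr1, and the other genes were added for their function. Differences between the genotypes are therefore given for these genes as a description.

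Total RNA of cortex was hybridised to 6 Affymetrix mouse expression arrays, 3 labelled wild type and 3 labelled as knockouts of both Egr1 and Egr3, called the knockout-labelled arrays below. Egr1 and Egr3 are zinc finger transcription factors that neurons switch on with activity. The labels give no strain, sex, age, allele or tissue handling, and do not say that arrays came from separate animals, so the errors and p-values measure only the spread between arrays. Values are linear probe set signals that the authors had summarised and scaled to a common brightness.

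Egr3 followed the label, with signals of 1189, 2670 and 924 in wild type replicates 1, 2 and 3 and 339, 370 and 507 in the knockout-labelled ones. Egr1 did not, with 1247, 2054 and 1430 against 2116, 2647 and 2657, so the group is named by its label only. The groups were taken from the sample descriptions, and the title of knockout-labelled replicate 1 is worded like the wild type titles, unlike those of the other two. Where the probes lie relative to the deleted parts was not given in the sources used here, and a probe set outside a deletion checks nothing. Xist read 3140 in knockout-labelled replicate 2 and at most 42.5 elsewhere, so that array holds RNA of a female and the others do not. Spiked control signal averaged 891 in wild type replicate 1 and 1763 to 2449 on the other arrays. Array medians spanned 36.2 to 39.5, and with 3 arrays a group precision is set by their small number. All 9 markers of excitatory cortical neurons were bright enough for testing in this cortex tissue.

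Acetylcholine is made from choline and acetyl-CoA by choline acetyltransferase, the product of Chat, and packed into vesicles by the transporter Slc18a3. Most of what the cortex receives comes from axons of basal forebrain neurons, whose cell bodies lie outside the cortex, while a small class of cortical interneurons, many of them Vip-positive, also makes it. Released transmitter acts on muscarinic receptors, which couple to G proteins, and on nicotinic receptors, which are ion channels built of several subunits. Acetylcholinesterase, encoded by Ache, ends the signal by splitting acetylcholine in the synaptic cleft, and butyrylcholinesterase, encoded by Bche, is its broader relative.

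The probe set of Ache, 1422635_at, was higher on each knockout-labelled array than on any wild type array. Its signal was 200.02, 126 and 182 in wild type replicates 1, 2 and 3 and 307, 402 and 343 in knockout-labelled replicates 1, 2 and 3. The groups were separated by the gap from 200.02 to 307. The lowest value lay in wild type replicate 2, which had the highest Egr1 and Egr3 signals of its group. Between the groups, Egr1 and Ache were both higher under the knockout label, and no relation between their signals was tested. The means were 169 ± 38.5 (SD, n = 3) and 350.5 ± 47.9 (SD, n = 3), a ratio of 2.07. On the log2(signal + 16) scale the difference, knockout label minus wild type, was 0.998 (SE 0.17, 95% confidence interval 0.62 to 1.38). Because 16 was added to each signal, differences on this scale are smaller than those of the signals, slightly for Ache and more for dim probe sets. In bulk tissue a change in the number of cells of a type and a change in RNA per cell cannot be told apart.

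**Figure D1:**
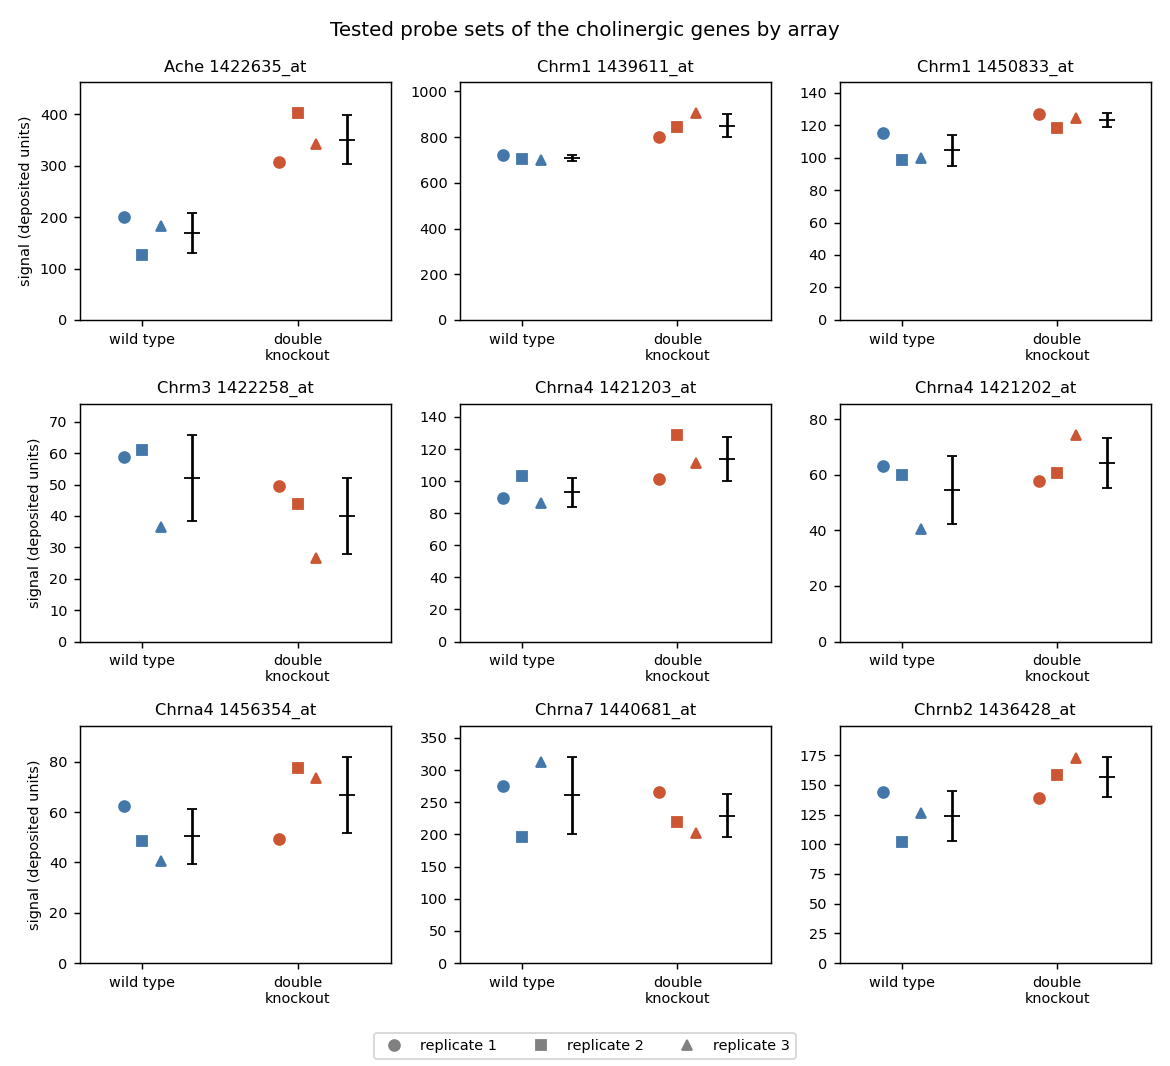
Signal of each tested probe set (vertical axes, deposited units, starting at 0) in wild type and knockout-labelled arrays, with symbols for replicates 1 to 3 and the mean with its SD in black. The Ache signals of the knockout-labelled arrays, 307 to 402, lie above the wild type range of 126 to 200.02, and both Chrm1 probe sets show a smaller gap.

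Of the 17 probe sets, 9 reached the brightness needed for testing, a mean log2 signal above the median of all probe sets, which corresponds to a signal of about 36.6. They stand for 6 genes, Ache, Chrm1, Chrm3, Chrna4, Chrna7 and Chrnb2. Only Ache was past the threshold of an adjusted p of 0.05 in limma, 1 of 9 probe sets, whereas 1.02% of all 22518 tested probe sets were past it in either direction and 0.426% in the upward direction. The groups did not overlap for 3 of the 9, Ache and both Chrm1 probe sets, all with the higher signals under the knockout label. Among all tested probe sets 22.3% did not overlap, and 11.5% did so with higher knockout-labelled signals. The median log2 difference was 0.25 over the 9 probe sets and 0.0093 over all tested ones. Since the genes were chosen with the Ache difference in view, nothing is read from these shares.

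Whether Ache was past the threshold depended on the setting. Its difference lay between 0.82 and 1.12 on the log2 scale over 17 alternative settings, all with higher signal under the knockout label. Changes of the filter, the trend or the replicate block cannot move this difference, which stayed at 0.998. Because the groups did not overlap, leaving arrays out cannot reverse its sign. Ache stayed past the threshold in 12 of the 17, in a range of adjusted p from limma of 0.0190 to 0.186. It was not past it without knockout-labelled replicate 2, the array of the female (log2 difference 0.90, adjusted p = 0.142), nor without knockout-labelled replicate 3 (1.01, adjusted p = 0.117). Without knockout-labelled replicate 1, the array with the doubtful title, it was past it (1.09, adjusted p = 0.0469).

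**Figure D2:**
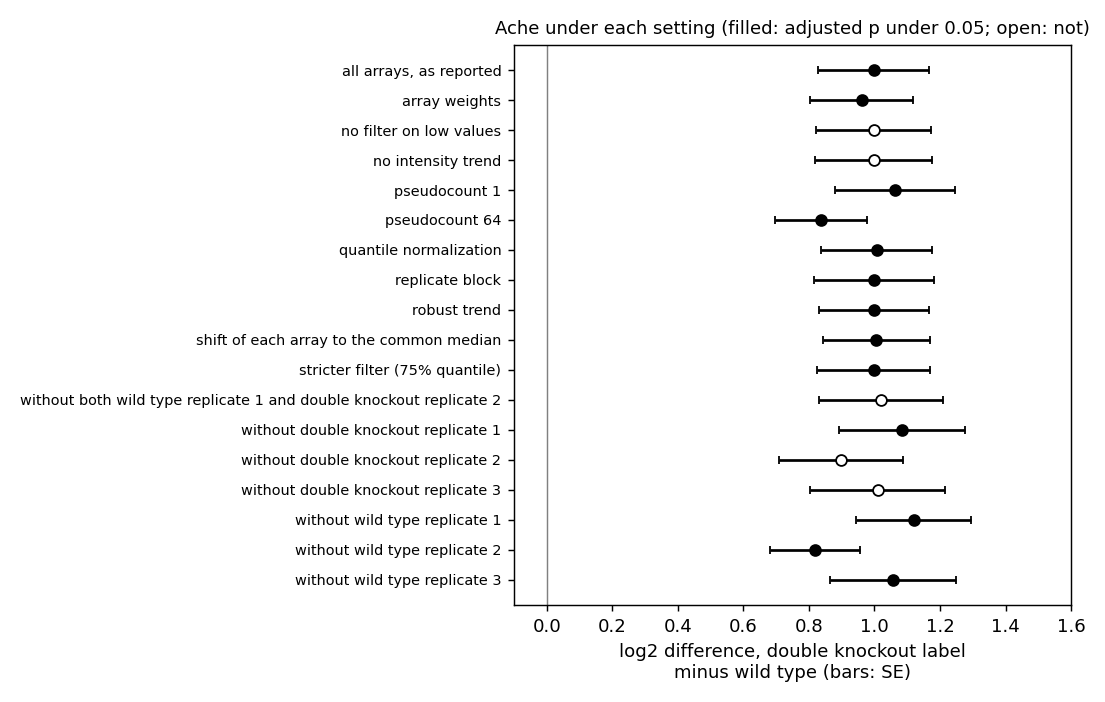
Difference of Ache between the groups (horizontal axis, log2(signal + pseudocount), knockout label minus wild type, bars are SE) for all 6 arrays and for each alternative setting. Points lie between 0.82 and 1.12, and the open points are the 5 settings in which the adjusted p was 0.05 or more.

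The promoter of Ache is shown because the gene is a reported Egr1 target. The window is the 250 bases before the transcription start in RefSeq on build GRCm38.p6, at chr5:137288004-137288253 on the plus strand, outside the annotated transcript of that start. It was searched on both strands for GCGNGGGCG, where N is any base, the core bound by Egr zinc fingers. Capitals mark the matches. The Chrna7 window, at chr7:63212527-63212776 on the minus strand, is set beside it because it was the only other one of these genes with a match.

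Ache: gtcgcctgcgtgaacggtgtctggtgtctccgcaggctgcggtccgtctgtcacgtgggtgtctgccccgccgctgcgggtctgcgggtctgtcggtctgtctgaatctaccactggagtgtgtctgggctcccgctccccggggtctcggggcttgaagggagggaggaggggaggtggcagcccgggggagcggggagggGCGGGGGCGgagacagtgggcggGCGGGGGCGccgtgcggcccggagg
Chrna7: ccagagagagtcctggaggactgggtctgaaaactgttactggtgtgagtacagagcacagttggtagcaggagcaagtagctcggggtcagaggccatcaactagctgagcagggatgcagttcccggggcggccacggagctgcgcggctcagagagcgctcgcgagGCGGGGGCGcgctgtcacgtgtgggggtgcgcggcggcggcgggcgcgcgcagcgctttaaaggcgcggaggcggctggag

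Ache held 2 matches, both reading GCGGGGGCG on the plus strand of the gene, from 48 to 40 and from 25 to 17 bases before the start. Both share bases with the GC box GGGCGG, the core bound by Sp1-type factors, of which the window had 4. Chrna7 held 1 match, from 81 to 73 bases before the start, which shares no base with a GC box. Windows were found for 9 of the 10 genes, all but Chrm1, and those of the other 7 had no match. Of 32851 promoter windows of this length, 4.7% had at least 1 match and 0.648% had 2 or more, while 32.7% had a GC box. The Ache window was 73.6% G and C. A match describes letters only, and no binding was measured in these samples.

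The relative of Ache, Bche, was dim. Its brightest probe set, 1436098_at, read 32.9, 31.9 and 34.5 in wild type and 35.3, 28.8 and 40.3 on the knockout-labelled arrays. These values overlap, and the log2 difference was 0.04. The other 2 Bche probe sets read at most 17.5 on any array. None of the 3 reached the brightness for testing, so a difference in Bche was not measurable here.

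The synthetic enzyme gene Chat was below that brightness as well. Its signal was 21.8, 15.3 and 9.91 in wild type and 14.1, 15.9 and 7.29 on the knockout-labelled arrays, which overlap. Slc18a3, the vesicular transporter whose gene shares the Chat locus, read 2.65 to 22.7 over the 6 arrays, and the choline transporter Slc5a7 1.96 to 7.09. Of 11 measured markers of cholinergic neurons and basal forebrain, 2 were bright enough for testing, the transcription factor genes Lhx6 and Zic1, which other neurons also use. The defining transcription factors Lhx8, Isl1 and Gbx1 read at most 12.1, 9.41 and 16.3. Chat lies on chromosome 14 with Egr3, but not within 20 Mb of it, and it is the only one of the 10 genes on a chromosome of Egr1 or Egr3.

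Among muscarinic receptors, Chrm1, which couples to the Gq class and is the main muscarinic receptor of cortical pyramidal neurons, was slightly higher under the knockout label on 2 probe sets. The brighter, 1439611_at, read 722, 705 and 700.1 in wild type and 801, 845 and 904 on the knockout-labelled arrays. The groups did not overlap, and the wild type arrays differed among themselves by far less than the groups. The means were 709 ± 11.7 and 850.1 ± 51.7 (SD, n = 3 each), a log2 difference of 0.25 (SE 0.09, 95% confidence interval 0.04 to 0.46). The dimmer, 1450833_at, read 115, 98.3 and 99.9 against 127, 118 and 124, again without overlap, and differed by 0.21 (SE 0.13, interval -0.08 to 0.50). Neither was past the adjusted threshold, with all arrays or, for the brighter one, under any of 17 alternatives, where its difference stayed between 0.21 and 0.30. The order of the knockout-labelled arrays was not that of Ache, which was highest in replicate 2, while the brighter Chrm1 probe set was highest in replicate 3.

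Chrm3, another Gq-coupled receptor, read 58.9, 61.1 and 36.4 in wild type and 49.6, 43.8 and 26.5 on the knockout-labelled arrays. The groups overlap, and replicate 3 was the lowest array in each of them. The log2 difference was -0.29, with a wide interval of -0.78 to 0.20. It was -0.10 without knockout-labelled replicate 3 and -0.47 without wild type replicate 3. Chrm4, a Gi-coupled receptor best known from the striatum, read 1.10, 2.24 and 14.3 in wild type and 2.52, 5.99 and 3.13 on the knockout-labelled arrays. At such signals no comparison can be made.

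The subunits Chrna4 and Chrnb2, which together form the main high-affinity nicotine receptor of the brain, had higher means but overlapping arrays under the knockout label. The brightest Chrna4 probe set, 1421203_at, read 89.2, 103 and 86.6 in wild type and 101, 129 and 111 on the knockout-labelled arrays. Only wild type replicate 2 and knockout-labelled replicate 1 crossed. The difference was 0.25 (SE 0.14, 95% confidence interval -0.07 to 0.57). The other Chrna4 probe sets, 1456354_at and 1421202_at, differed by 0.31 (interval -0.12 to 0.74) and 0.20 (interval -0.20 to 0.59), so all 3 probe sets had the same sign.

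The brightest Chrnb2 probe set, 1436428_at, read 144, 102 and 126 in wild type and 139, 158 and 173 on the knockout-labelled arrays. Knockout-labelled replicate 1 lay below wild type replicate 1. The difference was 0.31 (SE 0.15, interval -0.03 to 0.65), and 0.19 without wild type replicate 2. The remaining Chrnb2 probe sets were below the brightness for testing and overlapped.

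Chrna7, which forms a receptor of a single kind of subunit and admits calcium readily, went the other way without separating the groups. Its brighter probe set, 1440681_at, read 275, 195 and 312 in wild type and 266, 219 and 202 on the knockout-labelled arrays, a log2 difference of -0.16 (interval -0.55 to 0.22). It was -0.03 without wild type replicate 3 and -0.35 without wild type replicate 2. The dimmer, 1450299_at, was not tested. It read 40.2, 27.0 and 44.2 against 20.8, 23.4 and 27.9, and overlapped only through wild type replicate 2 and knockout-labelled replicate 3. None of the intervals of Chrm3, Chrna4, Chrna7 and Chrnb2 leaves out 0, and none shows that the levels were alike.

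**Figure D3:**
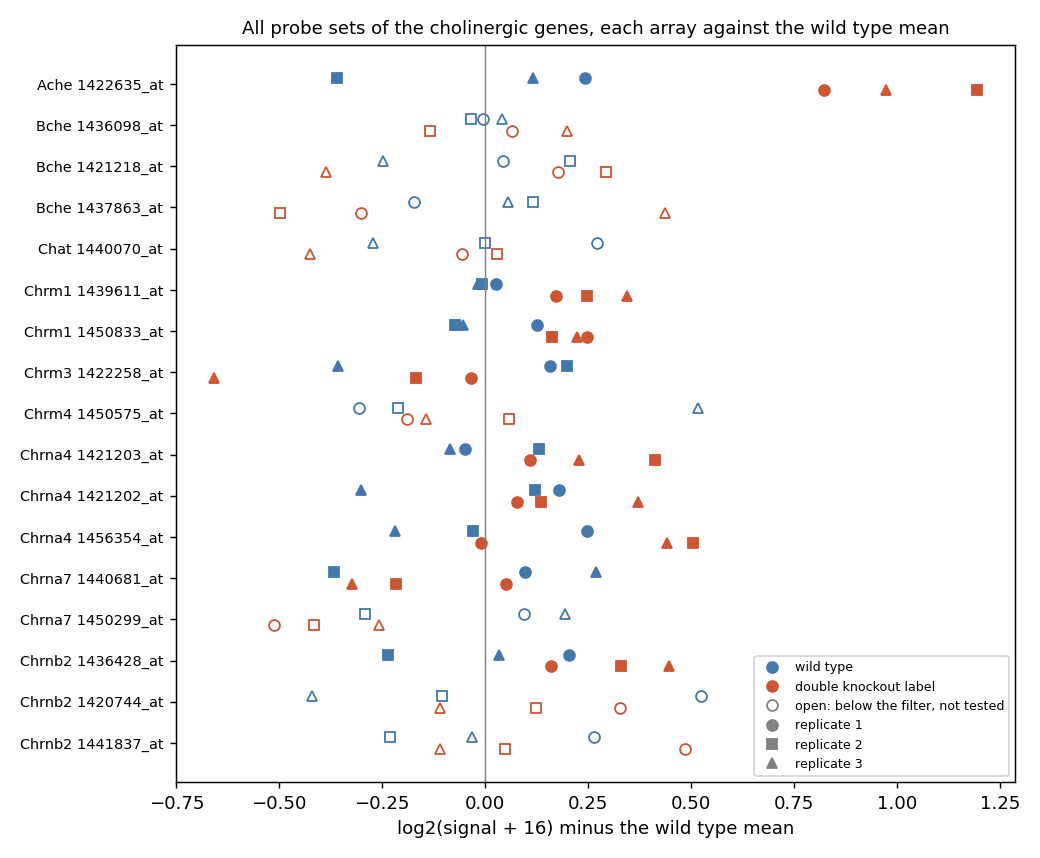
Each of the 17 probe sets (rows) on each array (symbols) as log2(signal + 16) minus the wild type mean of that probe set, with open symbols for the 8 probe sets too dim for testing. Ache stands apart at the top, the Chrm1 rows are split by less, and the Bche, Chat, Chrm4 and Chrna7 rows overlap.

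Other genes of acetylcholine handling and signalling, listed by function, numbered 73. Of these 67 were on the array and 44 had a tested probe set. On the brightest probe set of each gene, 24 had higher and 20 lower means under the knockout label, and the median log2 difference was 0.01, against 0.0083 over all 11053 tested genes. In limma 0 of the 44 were past the adjusted threshold, which 1.22% of all tested genes were. An unadjusted limma p under 0.05 was met by 17 of the 44, a larger share than the 1934 of all 11053. The lists were chosen with earlier results of these data known, so nothing is read from this share. A p that misses the threshold does not show that a gene was unchanged.

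Among 11 tested genes of synthesis and choline supply, the smallest p-values belonged to Acly and Pcyt1b. Acly is the ATP citrate lyase that makes acetyl-CoA in the cytosol, and Pcyt1b an enzyme on the route from choline to phospholipid. Acly read 855, 826 and 1072 in wild type and 671, 706 and 612 on the knockout-labelled arrays, without overlap (log2 difference -0.45, limma adjusted p = 0.115). A slightly dimmer Acly probe set, 1439459_x_at, fell from 845, 829 and 916 to 626, 560 and 566 (log2 difference -0.55, limma adjusted p = 0.0363). It was the only 1 of 94 tested pathway probe sets past the threshold and was picked out after its value was seen, and Acly serves lipid synthesis as well as acetylcholine. Pcyt1b read 192, 172 and 216 against 143, 148 and 139 (log2 difference -0.39, limma adjusted p = 0.175). Its relative Pcyt1a went the other way, from 118, 120 and 112 to 149, 164 and 149 (log2 difference 0.36, limma adjusted p = 0.195).

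Of the genes that anchor or assemble cholinesterase, only P4hb, a protein disulfide isomerase of the collagen prolyl hydroxylase, was bright enough, and it overlapped (log2 difference -0.02, limma adjusted p = 0.937). Prima1, the membrane anchor of brain acetylcholinesterase, and Colq, the collagen-like tail of the muscle form, were too dim. The remaining receptor genes, 12 of them on 21 probe sets, were all too dim, with no signal above 29.9 on any array. They include Chrna2, which lies within 20 Mb of Egr3.

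Chaperones and modulators of nicotinic receptors split evenly, 6 with higher and 6 with lower means. Tmem35a, a chaperone needed to assemble the Chrna7 receptor, read 544, 407 and 595 in wild type and 332, 376 and 354 on the knockout-labelled arrays (log2 difference -0.51, limma adjusted p = 0.126). Its direction was that of Chrna7 itself, and neither was past the threshold. Ly6e, a membrane-anchored relative of the receptor-binding toxin-like proteins, read 1524, 1335 and 1265 against 1106, 1102 and 949.9 (log2 difference -0.38, limma adjusted p = 0.137).

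Among 20 tested genes of muscarinic signal transduction, 12 had higher and 8 lower means. Kcnq3, a subunit of the M-type potassium channel that muscarinic receptors close, read 970.3, 1083 and 1120.4 in wild type and 1346, 1547 and 1513 on the knockout-labelled arrays (log2 difference 0.47, limma adjusted p = 0.0673). Kcnj9, a subunit of the potassium channels that Gi-coupled receptors open, read 958, 301 and 459 against 1371, 1251 and 1431 (log2 difference 1.37, limma adjusted p = 0.0754). Its wild type arrays spread over a wide range, and its next brightest probe sets overlapped between the groups, with differences of 0.76 and 0.33. The count of 0 depended on the setting. With all 6 arrays Kcnj9 was past the threshold under array weights and under the replicate block, and it was past it without wild type replicate 1, a count of 1 each time. Without wild type replicate 2 the count was 2, Kcnq5 and Tmem35a.

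**Figure D4:**
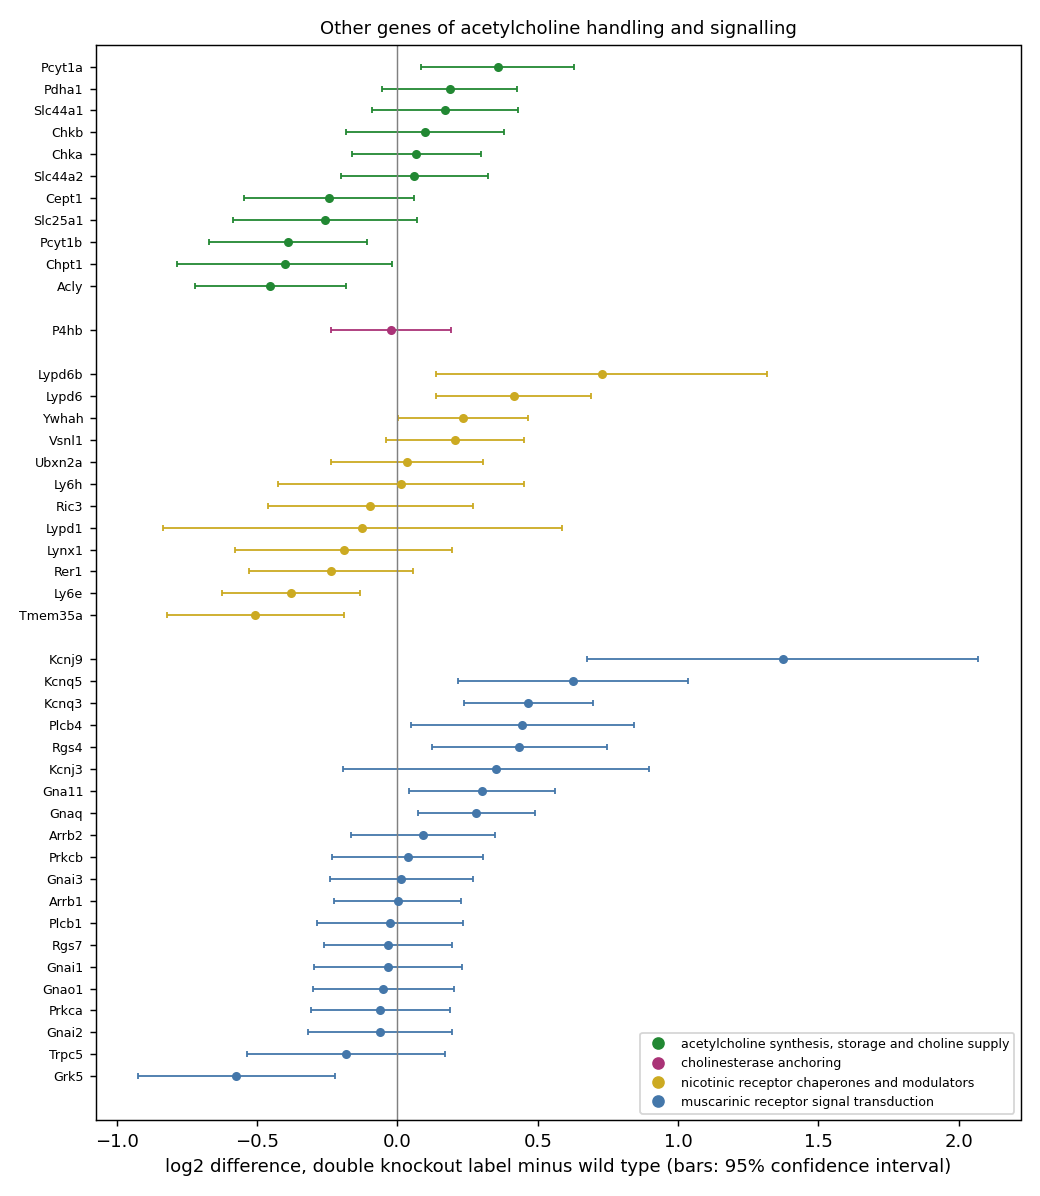
Difference between the groups (horizontal axis, log2(signal + 16), knockout label minus wild type, bars are 95% confidence intervals) of the 44 tested pathway genes, each by its brightest probe set and coloured by list. The 24 higher and 20 lower genes lie on both sides of 0, from Grk5 and Tmem35a on the left to Kcnj9 on the right.

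The array profile most like that of Ache was sought among all tested genes, by the root mean square difference of log2 values over the 6 arrays after centring each probe set. Closest was Bcl2l11, which encodes the apoptosis promoter Bim, at 0.08. It read 84.8, 62.3 and 79.5 in wild type and 142, 200.3 and 172 on the knockout-labelled arrays. Its lowest array, wild type replicate 2, and its highest, knockout-labelled replicate 2, were those of Ache, which a search by profile favours. A second Bcl2l11 probe set had the same order of arrays within the knockout label, 197, 275 and 231. It reads the same RNA samples, so it is not independent of the first.

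Next came Mfsd4a, a membrane transporter of the major facilitator family (0.14), the metal-responsive transcription factor gene Mtf1 (0.15) and Bbs9, a subunit of the ciliary BBSome complex (0.16). Other probe sets did not all follow, since 2 of Mfsd4a overlapped between the groups and 1 of Mtf1 had the opposite sign (-0.30). Likeness over 6 arrays in 2 groups mostly picks genes with a group difference of similar size.

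The genes lying nearest to Ache on chromosome 5 were listed in order. Over all tested genes 1.22% were past the threshold. Of the 5 nearest tested genes on each side of Ache, 1 of 10 was past it. This was Ap1s1, a subunit of the clathrin adaptor AP-1 and the next tested gene before Ache, which fell from 1035, 884 and 1077 to 695, 594 and 592 (log2 difference -0.66, limma adjusted p = 0.0324), opposite in sign to Ache. The other 9 neighbours were not past it, with log2 differences from -0.39 to 0.24. In RefSeq 2 further genes, Gm42456 and Mir8116, overlap Ache.

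**Figure D5:**
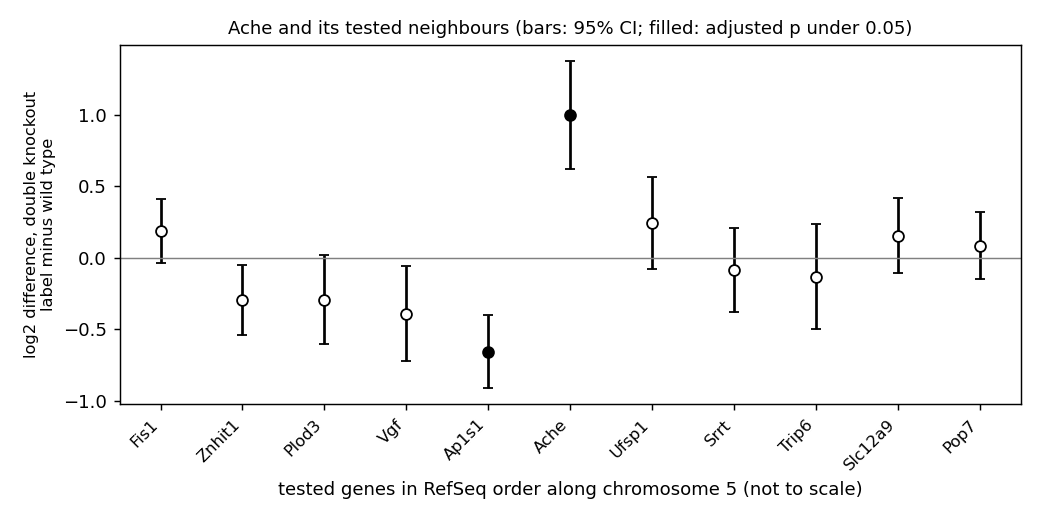
Difference between the groups (vertical axis, log2(signal + 16), knockout label minus wild type, bars are 95% confidence intervals) of Ache and the 5 nearest tested genes on each side, in gene order and not to scale. Filled points, Ache and Ap1s1, were past the adjusted threshold and point in opposite directions.

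Markers of cell types were compared beside these values as summed signals per array. Sums were taken with and without the brightest gene of each list, since that gene can carry a sum. Of all tested probe sets, 22.3% did not overlap between the groups, so a gap alone is common. Microglia markers, 13 of 13 tested, summed to 4333 to 5179 in wild type and 3121 to 4191 on the knockout-labelled arrays. Without the brightest, the growth factor receptor gene Csf1r, they summed to 2793 to 3429 against 1801 to 2678, again without overlap. All 13 had lower means under the knockout label, as did 5357 of all 11053 tested genes. In limma 0 of the 13 were past the adjusted threshold. An unadjusted limma p under 0.05 was met by 8 of them and by 1934 of the 11053.

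The 7 measured markers of cortical bipolar interneurons, the class that holds the cortical cholinergic cells, summed to 1536 to 1827 in wild type and 2053 to 2444 on the knockout-labelled arrays. That gap was carried by Vip, a neuropeptide gene, which rose from 1129.7, 1262 and 1096 to 1740.2, 1843 and 1557 (log2 difference 0.55, limma adjusted p = 0.0453). The other 6 markers summed to 440.03 to 583 against 495 to 601, which overlap. Of the 3 others bright enough for testing, Htr3a differed by 0.40, Calb2 by 0.02 and Crh by -0.15, and none was past the threshold.

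A gap between the groups was common, seen in 22.3% of all tested probe sets. The sums of 3 further lists did not overlap, but overlapped without their brightest gene. These were oligodendrocyte markers (20400.4 to 21639 against 21920.4 to 27172) without the myelin gene Mbp, endothelial and mural markers (2236 to 2749.9 against 1887 to 2109) without Rgs5, and general inhibitory markers (7552 to 8096 against 6953 to 7307) without Gad1. Astrocyte markers behaved the other way. All 10 overlapped in sum, while without the glutamate transporter gene Slc1a2 they summed to 7447 to 7740.4 in wild type and 6911 to 7399.7 on the knockout-labelled arrays. Among them Aqp4, the water channel of astrocyte endfeet, fell from 970.01, 972 and 958 to 592, 392 and 499.8 (log2 difference -0.96, limma adjusted p = 0.0139). Slc1a3 and Gjb6, also astrocyte genes, had higher means (0.38 and 0.58), neither past the threshold.

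Sums for 9 excitatory neuron, 11 striatum, 7 thalamus and 8 hippocampus markers overlapped with and without the brightest gene. In the hippocampus list Zbtb20, a zinc finger gene that astrocytes also use, fell from 365, 373 and 401 to 262, 264 and 251 (log2 difference -0.52, limma adjusted p = 0.0475). With Vip and Aqp4 it was 1 of 3 marker genes past the threshold. They were 1 each of 4 hippocampus, 4 bipolar interneuron and 10 astrocyte markers tested. The other marker lists had none, and 1.22% of all tested genes were past it. Zbtb20 had 8 tested probe sets and Aqp4 had 3, of which only the brightest is given. Striatum, rich in Ache and Chat, had 9 of 11 markers tested and sums of 1857 to 2375 against 1534 to 1860.1. The 9 choroid plexus markers summed to 11488 in wild type replicate 3, 4914 in knockout-labelled replicate 1 and at most 501 elsewhere, and without those arrays in turn the Ache difference was 1.06 and 1.09. As a sign of RNA quality, Gapdh control signal at the 3' end was divided by that at the 5' end. This ratio was 0.842, 0.806 and 0.873 in wild type and 0.922, 0.9497 and 0.881 on the knockout-labelled arrays, which do not overlap. The same ratio of Actb was 1.58, 1.67 and 1.95 in wild type and 1.89, 1.68 and 1.75 under the knockout label, which overlap. The part of these shifts in the Ache or Chrm1 difference was not tested.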

How the data were processed

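Per the deposited table, the values are the authors' scaled intensity per probe set on a linear scale, for 6 arrays; software and genome build are not given in the sources used here. Trimmed means (2% at each end) were 149.4 to 149.6. Groups came from the descriptions. Genes, lists and tests were chosen with earlier results of these data known. Of 45037 probe sets besides 64 controls, 34945 had 1 symbol in the platform annotation (932 several, 9160 none), updated through RefSeq (GRCm38.p6). Signals under 1 (4.35%) were set to 1, and log2(signal + 16) was tested for the 22518 probe sets with a mean above the overall median. limma 3.58.1 in R 4.3.3 was used (lmFit, eBayes with trend, group as the only term), tested on simulated data, with Benjamini-Hochberg adjustment over all of them. A gene's brightest probe set stood for it. Named were every probe set of the 10 genes, the 4 profiles most like Ache, and neighbours past the threshold. In each pathway list the genes past the threshold, or otherwise the 2 with the smallest p, were named. Pcyt1a was added beside its relative Pcyt1b after its value was seen. Signals of different probe sets were not compared as levels. Settings varied were the pseudocount (1 or 64), normalization (quantile or median shift), filter (none or the 75% quantile), trend (none or robust), array weights, a replicate block, arrays left out and, for pathway genes, averaging over probe sets. Leaving the brightest gene out of each marker sum was chosen after seeing the data. Plots used matplotlib 3.10.9 under Python 3.11.15.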

Additional observations from a re-analysis of the deposited data

How the results depend on the processing

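The Ache difference kept its sign in all 17 alternatives run. So did those of Chrm1, Chrm3, Chrna4, Chrna7 and Chrnb2 in the 16 or 17 in which each was bright enough. Changes of the filter, the trend or the replicate block cannot move a difference, so those settings tell nothing about its sign or size. Their ranges were 0.21 to 0.30 (Chrm1), -0.47 to -0.10 (Chrm3) and 0.15 to 0.32 (Chrna4). For Chrna7 the range was -0.35 to -0.03, and for Chrnb2 0.19 to 0.41. Without wild type replicate 2, Ache (0.82) and Chrna7 (-0.35) moved by slightly more than their SE of 0.17 each. The count of these genes' probe sets past the threshold, 1 with all arrays, was 0 with no filter on low signals, with no intensity trend and without both wild type replicate 1 (dim controls) and knockout-labelled replicate 2 (female); with 1 array left out it ranged from 0 to 1. Under these 3 settings Ache differed by 0.998, 0.998 and 1.02 on the log2 scale, with a limma adjusted p of 0.146, 0.0563 and 0.186; with 1 array left out it differed by 0.82 to 1.12. The 229 probe sets past the threshold over the whole array became 10 with no filter, 131 with no intensity trend and 9 without both of those arrays, and 33 to 300 with 1 array left out. The causes of these losses were not tested. The count of pathway genes, 0 with all arrays, was 1 with array weights and 1 with the replicate number as a block (Kcnj9 in both), and 0 to 2 with 1 array left out. The groups share only replicate numbers. Deviations of same-numbered arrays correlated at -0.15, 0.0013 and -0.10, 0 of 6 arrays correlated best with its own number, and the block moved 229 to 182 and kept Ache past the threshold (log2 difference 0.998, adjusted p = 0.0437). Bche, Chat, Chrm4 and most receptor subunits were too near the dim end for any comparison.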
